A study of Mus musculus with 2 samples.

Results

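The 10 genes described here encode the proximal microRNAs of the imprinted Dlk1-Dio3 region on mouse chromosome 12, which lie on the plus strand around Rtl1 and just beyond Meg3, upstream of Rian. They are Mir673, Mir493, Mir337, Mir540, Mir665, Mir431, Mir433, Mir127, Mir434 and Mir136, and were taken by gene symbol and Ensembl identifier from a table of 2202 microRNA genes. All 10 were found. The samples are adrenal glands of 2 male mice of the strain B6CASTF1/J, a first-generation cross between C57BL/6J and CAST/EiJ, both aged 36 days and numbered 3 and 4 in the labels, which nevertheless list the same donor record for both. RNA below 30 nucleotides was selected from total RNA and sequenced, with 1 library per animal. There was 1 group of 2 biological replicates, with no treatment, no altered gene and no second condition, so the only difference that could be tested was that between the 2 libraries, and such a test does not tell animals from preparation or sequencing. The counts do not separate the 2 parental alleles.

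In an imprinted region, genes are read from only the maternal or only the paternal chromosome. At Dlk1-Dio3 the protein-coding genes, among them Dlk1 and Rtl1, are read from the paternal chromosome, and the long noncoding RNAs Meg3, Rian and Mirg and the microRNAs from the maternal one. Rtl1 is a gene derived from a retrotransposon and is needed in the placenta. The microRNAs that lie opposite Rtl1 on the maternal strand pair with its messenger RNA along their whole length, and in mice such pairing is known to lead to cleavage of the Rtl1 transcript. A microRNA hairpin gives a 5p and a 3p arm, and bases 2 to 8 of an arm, the seed, take the main part in recognition of targets.

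The sequences show that the 10 genes are of 2 kinds. In the GENCODE M21 annotation (mm10, coordinates counted from 1) 5 of them, Mir431, Mir433, Mir127, Mir434 and Mir136, lie inside an exon of Rtl1 (chromosome 12, 109589193 to 109595488, minus strand), and within its coding sequence (109590172 to 109595403), on the opposite strand. The other 5 lie outside that exon. All 10 lie within the longer span that RefSeq gives to Rtl1 (109564900 to 109604418). No other GENCODE transcript of the plus strand contains any of the 10. Mature sequences of all 10 were found in RefSeq (GRCm38.p6). The arms of the genes within the Rtl1 exon are shown first, because these arms define the antisense relation, with the seed in capitals.
miR-431-5p: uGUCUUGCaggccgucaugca
miR-431-3p: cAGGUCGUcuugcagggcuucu
miR-433-5p: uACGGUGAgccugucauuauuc
miR-433-3p: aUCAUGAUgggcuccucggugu
miR-127-5p: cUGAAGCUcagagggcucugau
miR-127-3p: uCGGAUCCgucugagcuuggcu
miR-434-5p: gCUCGACUcaugguuugaacca
miR-434-3p: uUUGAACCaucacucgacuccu
miR-136-5p: aCUCCAUUuguuuugaugaugg
miR-136-3p: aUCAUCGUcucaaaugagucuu

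Each of these 10 arms is complementary over all its 21 or 22 bases to 1 site in the coding sequence of the Rtl1-201 transcript. The sites of the Mir127 arms are printed as they stand in the Rtl1 transcript, with the bases opposite the seed in capitals. They lie at chr12:109592854-109592875 and chr12:109592888-109592909, minus strand.
Rtl1 opposite miR-127-5p: atcagagccctctgAGCTTCAg
Rtl1 opposite miR-127-3p: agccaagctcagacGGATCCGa
They cover codons 843 to 850 and 832 to 839 of Rtl1. The sites run through the reading frame from codons 6 to 13 for miR-136-3p to codons 1642 to 1649 for miR-431-5p. Among all GENCODE transcripts, full complements of the arms of Mir431, Mir433, Mir127 and Mir434 were found in Rtl1 alone, and those of the Mir136 arms in Rtl1 and Mir3071, a microRNA gene on the opposite strand. Of the arms of the other 5 genes, only those of Mir337 had a full complement in any transcript, and it was Mir3544, a minus-strand microRNA gene of 61 bases inside Mir337 (97 bases). Their arms are shown because both strands of this place gave reads.
miR-337-5p: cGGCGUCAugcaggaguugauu
miR-3544-3p: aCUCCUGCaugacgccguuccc
miR-337-3p: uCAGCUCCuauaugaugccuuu
miR-3544-5p: aGAAAGGCaucauauaggagcug
Arms that face each other share 17 positions (miR-337-5p and miR-3544-3p) and 21 positions (miR-337-3p and miR-3544-5p), but are read in opposite directions and so have different seeds.

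The 20 arms of the 10 genes have 20 different seeds, so they form no seed family among themselves. Of the 1738 mature microRNAs in the RefSeq table, only 2 outside these genes share a seed with any of the arms, miR-6985-3p with miR-673-5p and miR-6915-5p with miR-540-3p.
miR-673-5p: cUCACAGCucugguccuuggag
miR-540-3p: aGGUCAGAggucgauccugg
No arm occurred in the same direction in a transcript of another GENCODE gene. The genome itself was not searched for further copies. Inside the hairpins, Mir431 and Mir434 hold a run that both of their own arms share, of 10 and 9 bases, against 3 to 6 bases in the other 8 genes. The run of Mir434 stands 3 times in its hairpin (chr12:109594506-109594599, plus strand), printed with the run in capitals.
Mir434 hairpin: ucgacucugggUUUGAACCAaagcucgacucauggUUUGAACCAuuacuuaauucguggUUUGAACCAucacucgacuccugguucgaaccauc
The hairpins were 62 (Mir136) to 124 bases (Mir433) long, with a GC content of 40.3% in Mir136 and 45.7% in Mir434 and of 52.6% to 61.5% in the other 8. Their predicted folding energy ran from -28.2 kcal/mol for Mir136 to -49.4 kcal/mol for Mir337.

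Of 12289288 and 10323816 reads, 4494857 (36.6%) and 2078824 (20.1%) were assigned to the sense strand of microRNA genes in replicates 1 and 2. A count of 0 allows up to 3 counts, or 0.667 and 1.44 CPM (counts per 1000000 gene counts), and intervals cover counting error only. Lists of microRNA genes known as markers of cell types were summed. Neuroendocrine genes (Mir375 and the miR-7 genes, 4 of 4 counted in both libraries) summed to 48802 and 54157 CPM in replicates 1 and 2, and vessel genes (3 of 3) to 121441 and 95007 CPM. Leukocyte (3 of 3) and liver genes (1 of 1) summed to 1385 and 1617 CPM and to 1383 and 2842 CPM, and neuron genes (1 of 7 in both, with all 3 Mir124a genes at 0) to 776 and 339 CPM. Striated muscle genes (1 of 5 in both, with 4 at 0) summed to 1.11 and 5.29 CPM. The neuron and striated muscle genes at 0 are numbered copies, such as the 3 Mir124a genes. Reads that mapped to several places were left out, and the limit given for a 0 does not cover them. A 0 at such copies therefore does not show that their microRNA was absent. Epithelial miR-200 genes (5 of 5) stood at 64.7 and 3576 CPM, pancreas acinar genes (0 of 3 in both) at 0 and 326 CPM, and erythroid genes (3 of 3) at 15841 and 1091 CPM. Their part in any difference between the libraries described below was not tested. In bulk tissue, fewer cells of a type and less RNA per cell cannot be told apart.

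All 10 genes were counted in both adrenal glands, and together they took 2.55% ± 0.310 of the gene counts (SD, n = 2). The sum was 104906 counts in replicate 1, or 2.33% (exact Clopper-Pearson interval 2.32 to 2.35), and 57639 counts in replicate 2, or 2.77% (2.75 to 2.80). Mir127 alone made up 72.4% of these counts in replicate 1 and 72.8% in replicate 2. The 5 genes within the Rtl1 exon made up 90.5% and 92.5%. Levels spanned 739-fold between the means of Mir127 and Mir493, and in 1453 of the 2202 genes of the table no count was found in either library.

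**Figure D1:**
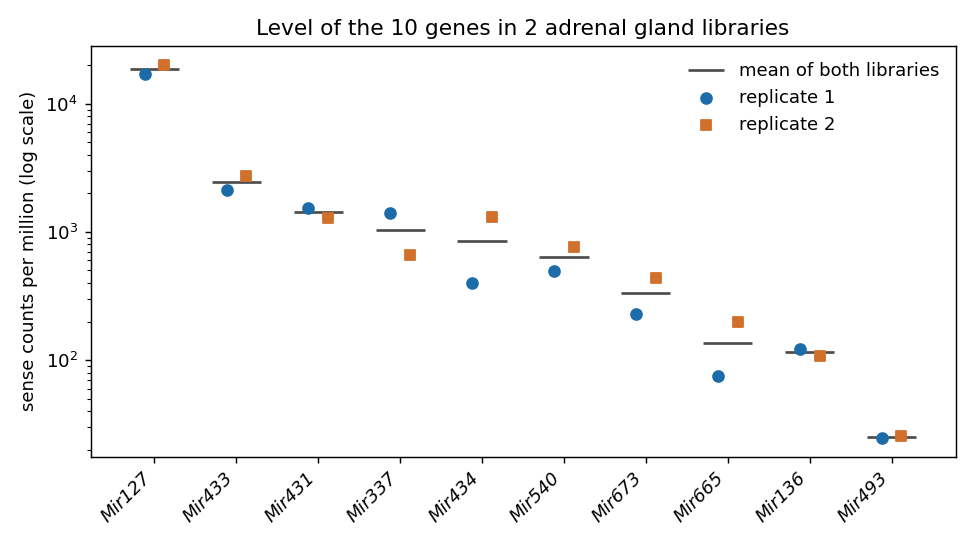
Sense level in CPM (log axis) of the 10 genes, ordered by their mean; circles are replicate 1, squares replicate 2 and bars the mean of both libraries. Mir127 stands at 16909 and 20183 CPM and Mir493 at 24.7 and 25.5 CPM, and the widest gap between the libraries is that of Mir434.

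Within the Rtl1 exon, Mir127 was far above its neighbours. Mir127 (ENSMUSG00000070076.2, 109592846 to 109592915), whose product is among those known to cut Rtl1 in mice, had 76002 counts or 16909 CPM in replicate 1 and 41958 counts or 20183 CPM in replicate 2 (18546 ± 2316 CPM, SD, n = 2). It ranked 16 and 11 among all genes of the 2 libraries. Mir433 (ENSMUSG00000070072.1, 109591715 to 109591838), the next gene upstream among the 10, had 9619 and 5695 counts, or 2140 and 2740 CPM. Mir431 (ENSMUSG00000070080.1, 109590447 to 109590537), whose product is known to target the muscle stem cell factor Pax7 in mice, had 6933 and 2691 counts, or 1542 and 1294 CPM. Mir127 thus stood 7.90-fold above Mir433 in replicate 1 and 7.37-fold in replicate 2.

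The last 2 genes of the exon had lower means than the first 3, although in replicate 2 Mir434 stood at about the level of Mir431. Mir434 (ENSMUSG00000070133.1, 109594506 to 109594599), which holds the repeated run shown above, had 1799 and 2729 counts, or 400 and 1313 CPM. Mir136 (ENSMUSG00000104858.1, 109595327 to 109595388), opposite the first codons of Rtl1, had 551 and 225 counts, or 123 and 108 CPM. The 5 genes of the exon, which lie within 4.94 kb, therefore covered 161-fold between the means of Mir127 and Mir136.

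Outside the exon, 3 genes lie within 619 bases of each other. Of these, Mir337 (ENSMUSG00000065526.4, 109585789 to 109585885) had 6270 and 1374 counts, or 1395 and 661 CPM. Mir540 (ENSMUSG00000072900.2, 109586080 to 109586146) had 2247 and 1590 counts, or 500 and 765 CPM, and Mir665 (ENSMUSG00000076313.1, 109586314 to 109586407) had 337 and 412 counts, or 75.0 and 198 CPM. Among these close neighbours, Mir337 was higher in replicate 1, and Mir540 and Mir665 in replicate 2.

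Nearest to Meg3, Mir673 (ENSMUSG00000076316.1, 109571990 to 109572080), which starts 264 bases beyond the annotated end of Meg3, had 1037 and 912 counts, or 231 and 439 CPM. Mir493 (ENSMUSG00000077025.2, 109580233 to 109580315) was the lowest of the 10, with 111 and 53 counts, or 24.7 and 25.5 CPM. Its CPM values were the closest of any of the 10 genes between the libraries, although they rest on the fewest reads.

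The order of the means was Mir127, Mir433, Mir431, Mir337, Mir434, Mir540, Mir673, Mir665, Mir136 and Mir493. Neighbours in that order were called separate where the values of the 2 libraries did not overlap and the gap of the means was larger than either SD, which held for 5 of 9 pairs. Mir127 was separate from Mir433, Mir433 from Mir431, Mir540 from Mir673, Mir673 from Mir665 and Mir136 from Mir493. The neighbours that were not separate were Mir431 and Mir337, Mir337 and Mir434, Mir434 and Mir540, and Mir665 and Mir136. Within each library Mir431 still stood above Mir337, 1.11-fold in replicate 1 and 1.96-fold in replicate 2. The order within each of the other pairs that were not separate changed between the libraries. In replicate 1 Mir337 was 3.49-fold above Mir434, whereas in replicate 2 it was 0.503 times Mir434. No test was made on the order, since the smallest exact p that 2 values on each side allow is 0.33.

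By a rule that takes the nearest levels in both libraries, the genes most like Mir127 were Mir99a and Mirlet7d, at distances of 0.66 and 0.70 on the log2 CPM scale over 2 libraries. Mir99a had 18493 and 12925 CPM, and Mirlet7d 22942 and 29479 CPM. Both lie on other chromosomes, 16 and 13.

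Between the 2 libraries the 10 genes did not move together. Ratios are those of replicate 1 over replicate 2 on the log2 scale, after TMM scaling, which brings the bulk of genes to a common level. The test for each gene was the exact binomial test, two-sided, in which counting noise is the only error, with Benjamini-Hochberg adjustment over the 333 genes that reached 10 counts in each library. All 10 genes reached that count. Of them 3 were higher in replicate 1, 6 were higher in replicate 2 and 1 was not past the test, so 9 of 10 were called. Of all 333 genes 78.1% were called, 38.7% as higher in replicate 1 and 39.3% as higher in replicate 2, so a call as such is the usual case in these libraries. With the edgeR exact test, whose dispersion (biological coefficient of variation 52.2%) comes from the same 2 libraries, 1.8% of genes were called and none of the 10, and 0 of the 10 had an unadjusted p under 0.05.

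**Figure D2:**
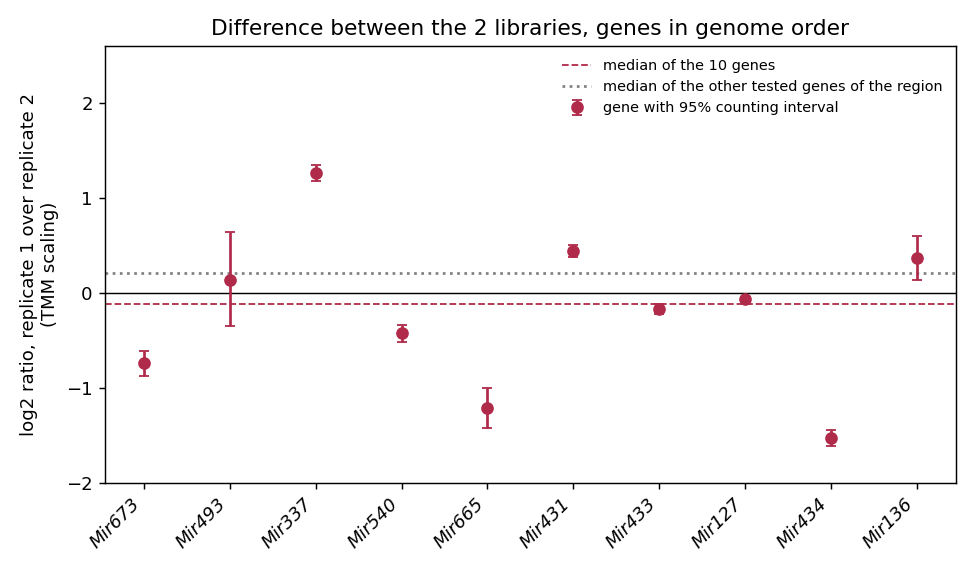
Log2 ratio of replicate 1 over replicate 2 after TMM scaling for the 10 genes in genome order, with 95% counting intervals; the dashed line is the median of the 10 genes (-0.12) and the dotted line that of the other tested genes of the region (0.21). Mir337 lies highest at 1.26 and Mir434 lowest at -1.53, while Mir127 lies at -0.07 and turns to 0.10 with no count minimum and to 0.093 with a GC correction.

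The largest ratio toward replicate 1 was that of Mir337, at 1.26 (interval 1.18 to 1.35; exact binomial adjusted p = 4.42e-224). Mir431 followed at 0.44 (0.37 to 0.50), and Mir136 at 0.36 (0.14 to 0.60, exact binomial adjusted p = 0.00192). Mir136 was no longer past the test with scaling by library size alone, where its ratio was 0.18, or with a correction for hairpin GC content, where it was 0.08. Toward replicate 2 the largest ratio was that of Mir434, at -1.53 (-1.62 to -1.44; exact binomial adjusted p = 6.50e-273). Mir665 followed at -1.22, Mir673 at -0.74, Mir540 at -0.43, Mir433 at -0.17 and Mir127 at -0.07 (-0.09 to -0.05).

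With TMM scaling and the minimum of 10 counts, the ratio of Mir127 was the smallest of the 10 in size. Some alternatives gave another gene a smaller one, as Mir493 with library size alone, at -0.05 against -0.26 for Mir127. The direction of the Mir127 ratio also depended on the scaling. This ratio was 0.10 with no count minimum and 0.093 with the GC correction, past the test in both. It was not past it with a minimum of 5 counts (-0.02). Mir433 was not past the test with no count minimum (0.00) or with the GC correction (-0.03). Mir493 was not past it with TMM scaling (0.14, interval -0.35 to 0.64). Ratios of library size alone lie lower than those of TMM scaling by 0.19, which is the shift of all genes between the 2 scalings.

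Genes close together on the genome could have ratios of opposite sign. Mir434 and Mir136, which follow each other among the 10 in the Rtl1 exon, had ratios of -1.53 and 0.36 with counting intervals that did not touch, and Mir337 and Mir665, within the 619 bases named above, had ratios of 1.26 and -1.22. The sign of each of these 4 ratios was the same in every alternative in which the gene was tested. Whether these differences are larger than those between animals could not be tested with 1 library per animal.

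**Figure D3:**
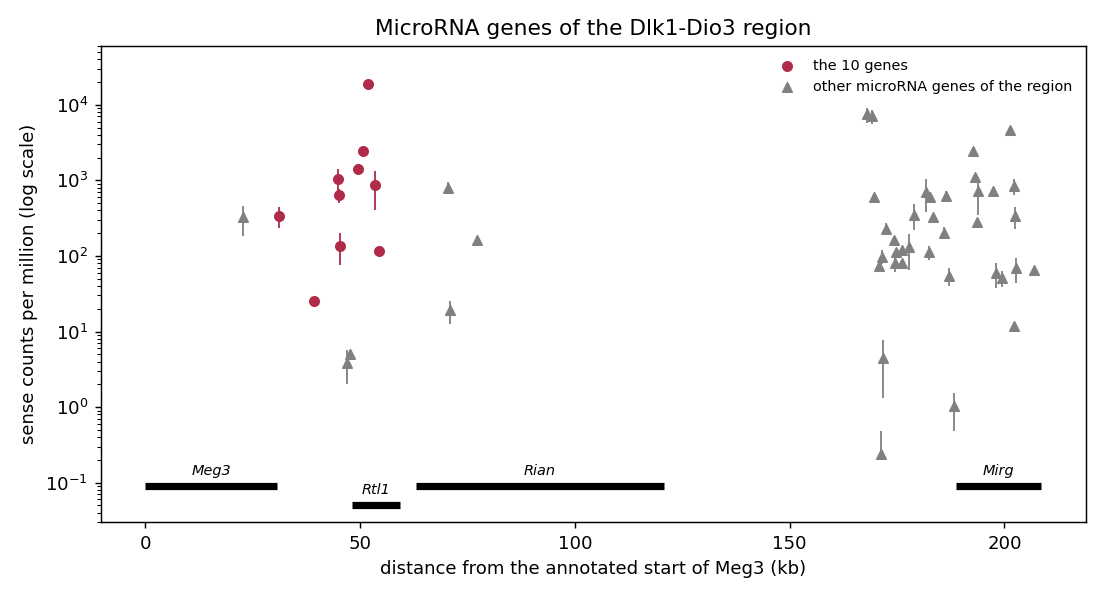
Mean sense level in CPM (log axis) of the microRNA genes of the region with at least 1 count, against the distance from the annotated start of Meg3 in kb; vertical lines join the 2 libraries (drawn down to 0.2 where a library had 0 counts) and bars mark the annotated long genes. The 10 genes lie between 31.0 and 54.3 kb, and Mir127 at 18546 CPM is the highest point of the region.

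In the whole Dlk1-Dio3 region, of which the 10 genes are a part, the summed share of all gene counts differed little between the libraries. The division of that sum differed more. The region held 49 further plus-strand microRNA genes from Meg3 to the end of the Mirg run, 7 of them with no count in either library. Together with the 10 it took 5.81% of gene counts in replicate 1 (5.79 to 5.83) and 5.66% in replicate 2 (5.63 to 5.69). These counting intervals did not touch. Such shares follow library size alone, and TMM scaling moves every log2 ratio by 0.19 toward replicate 1. The sum of the region was not tested on that scale. Of the counts of the region, the 10 genes held 40.2% in replicate 1, with an exact interval from 40.0 to 40.3, and 49.0% in replicate 2, with one from 48.7 to 49.3. The 40 genes beyond Rian took 58.1% (57.9 to 58.3) and 48.2% (47.9 to 48.5). Without Mir127 in either sum, the share of the other 9 genes was still lower in replicate 1, at 15.6% against 20.7% in replicate 2, with counting intervals that did not touch.

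The 3 highest of the other genes were Mir379, Mir411 and Mir541, all in the run beyond Rian. Mir379 had 9137 and 5752 CPM, with a log2 ratio of 0.85 (0.82 to 0.88). Mir411 had 8639 and 5552 CPM, with a log2 ratio of 0.82. Mir541 had 4690 and 4477 CPM, with a log2 ratio of 0.25. All were higher in replicate 1, whereas Mir127, the highest of the 10 genes, had a log2 ratio of -0.07 with the same scaling. In counts, Mir379 had 41071 and 11957 and Mir411 had 38831 and 11542. The genes beyond Rian summed to 151715 and 56709 counts, so Mir379 and Mir411 made up a large part of them. The division of the region without Mir379 and Mir411 was not computed.

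As a list, the 10 genes, with 3 and 6 calls toward replicates 1 and 2, had a median log2 ratio of -0.12. The 38 other tested genes of the region had 18 and 14 such calls and a median of 0.21, and the median over all 333 genes was -0.01. The 5 genes of the Rtl1 exon split into 2 and 3 with a median of -0.07, and the 5 outside it into 1 and 3 with a median of -0.43. The median GC content of the hairpins was 54.8% in the 10 genes and 44.3% in the 38. With the linear correction for GC content the medians were 0.03 in the 10 genes and 0.08 in the 38, with 3 and 4 of the 10 and 18 and 15 of the 38 called in the 2 directions. With no count minimum the 10 genes had a median of 0.05, with 4 and 4 calls, and the other tested genes of the region 0.34. With scaling by library size alone these medians were -0.31, with 2 and 6 calls, and 0.03. The sign of the median of the 10 genes thus depended on the processing. The difference between the lists was not tested over animals.

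Strand decided what was seen of Mir337 and Mir136. Each file gives counts for the sense strand, for the other strand, and without regard to strand. In the strand-blind column Mir337 had 13 and 1 reads in replicates 1 and 2 against 6270 and 1374 in the sense column, and Mir136 had 0 and 0 against 551 and 225. The other 8 genes differed by at most 1 read between these columns. Mir337 and Mir136 are the only 2 of the 10 with a microRNA gene annotated on the opposite strand, Mir3544 and Mir3071, and the strand-blind column sets 6.47% and 3.90% of all reads apart as ambiguous between genes, where the sense column has none. In each library the sense count of Mir337 equalled the other-strand count of Mir3544, and that of Mir136 equalled the other-strand count of Mir3071.

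**Figure D4:**
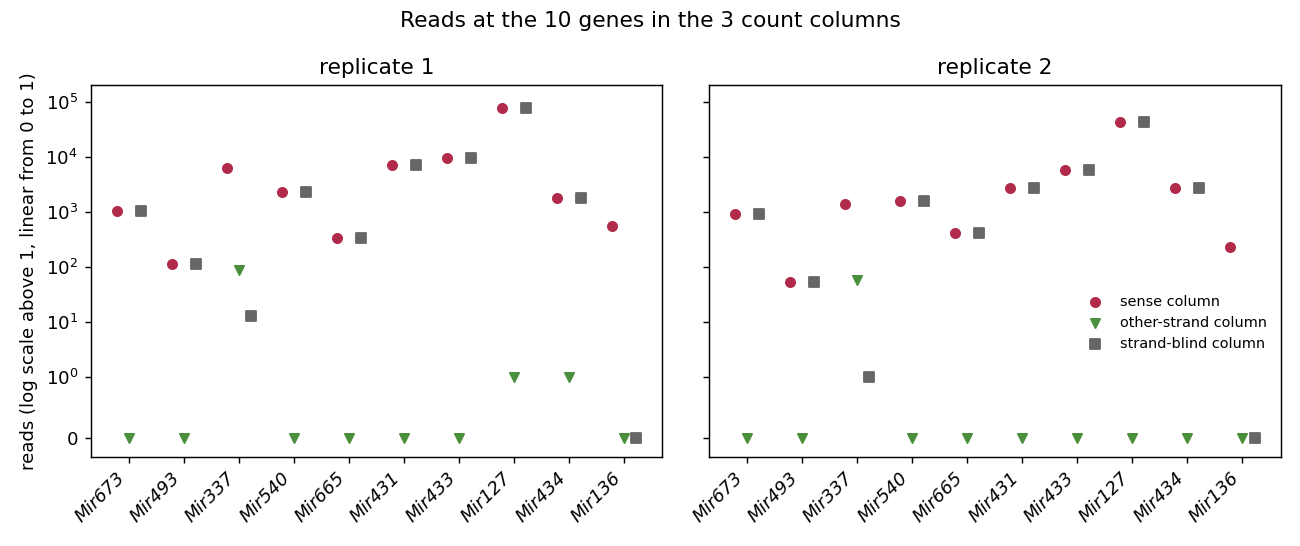
Reads at the 10 genes in genome order in the sense, other-strand and strand-blind columns of replicate 1 (left) and replicate 2 (right), on an axis that is logarithmic above 1 and linear from 0 to 1. At Mir337 the other strand holds 86 and 58 reads and the strand-blind column 13 and 1, at Mir136 both are at 0, and at the other 8 genes the other strand holds 0 or 1 read.

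Reads from the other strand were few and came almost all from 1 place. Summed over the 10 genes they were 88 in replicate 1 and 58 in replicate 2, or 0.0838% and 0.101% of the reads of both strands. Over all genes of the table the same share was 15.0% and 16.2%. That share also takes in sense reads of genes that lie opposite another gene, as at Mir3544 and Mir3071. At Mir337 the other-strand reads were 86 and 58, of which 73 and 57 were counted for Mir3544 on its own strand, or 16.2 and 27.4 CPM. Mir337 stood 85.9-fold above Mir3544 in replicate 1 and 24.1-fold in replicate 2. Mir3071, opposite Mir136, had 0 counts on its own strand in both libraries. The counts of Mir136 were about 184 times in replicate 1 and 75 times in replicate 2 the 3 counts per library that a 0 allows.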

How the data were processed

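MicroRNA libraries of 2 adrenal glands were analysed. The authors deposited raw counts of reads per microRNA gene, without regard to strand and for each strand, with mm10 and GENCODE M21 as annotation, according to text deposited alongside. Which aligner and counter were used is not given in the sources used here. The sense column was fixed by its position, and its gene total was larger than that of the other strand in both libraries. Counts refer to hairpin genes, not arms. Reads unmapped (26.4% and 51.9% in replicates 1 and 2), mapping to several places (29.8% and 21.5%) or outside genes (7.16% and 6.46%) name no gene and were left out. CPM are counts scaled to 1000000 over all genes.

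TMM factors came from the tested genes with library sizes over all genes. The edgeR exact test used the common dispersion. Alternatives were library size, DESeq2 median ratios, count minima of 5, 50 or none, the strand-blind column, a linear GC correction, totals without the highest gene and each library alone. The calls of the binomial test were also checked on simulated counts with known changes, scaled by the unchanged genes and not by TMM. The exact interval of a share was checked on separate simulated draws. These checks enter no reported value, and the interval of the log2 ratio was not checked on its own. Folding energies came from ViennaRNA 2.7.2. Statistics used edgeR 4.0.16 and DESeq2 1.42.0 in R 4.3.3, and SciPy 1.17.1, pandas 2.3.3 and NumPy 2.4.6 in Python 3.11.15; figures used matplotlib 3.10.9.

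Named were the 10 genes, the 3 highest other genes of the region, the 2 nearest to Mir127 and microRNA genes opposite a member. The genes and lists were chosen with earlier results of these data known.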

Additional observations from a re-analysis of the deposited data

Results flagged for a closer look

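Reads on the strand opposite Mir337 lie outside the sense measurement of the 10 genes and were above the 3 counts that a 0 allows. Mir3544 had 73 counts in replicate 1 and 57 in replicate 2 on its own strand. The other-strand column of Mir337 held 86 and 58 reads. The 13 and 1 reads by which it exceeded Mir3544 equal the reads that the strand-blind column gives to Mir337.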

How the results depend on the processing

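No paired analysis was possible because there is 1 group. The summed share of the 10 genes was 2.33% to 2.77% with each library alone, 3.00% in the strand-blind column and 2.97% without Mirlet7b, the highest gene. Their share of the region was 40.2% to 49.0% with each library alone. The count of genes higher in replicate 1 was 1 of 8 tested in the strand-blind column, where Mir337 and Mir136 fall under the count minimum. The edgeR exact test called 0 in replicate 1 and 0 in replicate 2 (0 at an unadjusted p under 0.05). The other alternatives left both counts within 1.5 times, at 2 to 4 and 4 to 6. Mir127 turned from -0.07 to 0.10 with no count minimum and 0.093 with the GC correction. The cause was not tested. The order of levels, with alternatives added after seeing the data, had 5 separate pairs with TMM effective sizes. In the strand-blind column it had 6, but in another order, since Mir337 fell to 2.06 CPM, below Mir493 at 30.8 CPM, and Mir136 to 0. Depth limits Mir493 most, with 53 counts in replicate 2.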

Other observations

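Among the 10 genes lie 3 further annotated plus-strand microRNA genes, which were chosen after their values were seen. Mir3070a had 9 and 12 counts, or 2.00 and 5.77 CPM, and Mir3070b had 19 and 12 counts, or 4.23 and 5.77 CPM, in replicates 1 and 2. Mir432, between Mir434 and Mir136, had 0 counts in both. Their levels in assigned reads lay below that of Mir493, the lowest of the 10. Reads mapping to several places were left out, and their part in these 3 genes was not examined.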
